A study of Mus musculus with 6 samples.

Results

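The report describes 6 loci in a map of chromosome contacts: Firre on the X chromosome and 5 loci on autosomes that have been described as its partners, Slc25a12 and Ypel4 on chromosome 2, Eef1a1 on chromosome 9, Atf4 on chromosome 15 and Ppp1r10 on chromosome 17. Each locus was taken as its 1 Mb bin on the mouse build mm9 with the bin on either side, which gave 18 of the 2666 bins in the position key. The bins were set by position, not by their contacts, although earlier results of these data were known when the loci were chosen. The cells were fibroblasts from 2 mouse embryos, 129xCast hybrids whose chromosome sets come from different strains, with 3 technical replicates each, all in 1 group with no other genotype, treatment or control. Chromatin was fixed with formaldehyde, cut with HindIII, labelled with biotin and ligated in dilution, and the joined ends were sequenced in pairs. The values are those of 1 pooled map, and the labels do not state which of the libraries, or whether both embryos, entered it. No value below has a replicate, and all intervals cover counting error only, since copies made by PCR are not independent molecules. The map was read as contacts that join a chromosome of 1 parental strain to a chromosome of the other, from the allele codes in its name, and the labels do not state this. A contact map holds no expression, so the labelled cell type could not be checked by marker genes.

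Firre is a long noncoding RNA made from the X chromosome. It stays in the nucleus near its own gene, is expressed from the otherwise silent X as well, and binds the nuclear matrix protein hnRNPU through a repeated RNA domain. In mouse embryonic stem cells the Firre locus was described as lying close to the partner genes although they sit on other chromosomes. The partners have unlike tasks. Slc25a12 encodes a mitochondrial carrier for aspartate and glutamate, Ypel4 a member of the Yippee-like protein family, Eef1a1 the factor that brings aminoacyl-tRNA to the ribosome, Atf4 a transcription factor of the integrated stress response, and Ppp1r10 a nuclear subunit that directs protein phosphatase 1. The comparisons ask whether these loci met more often in fibroblasts than other windows of the same chromosomes, and which parts of the genome each of them met.

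The map joins ends left by HindIII, which cuts at AAGCTT, so the promoters of the 6 genes were searched for that site on the RefSeq table of build GRCm38.p6. All 6 genes matched, with 7 promoters of 250 bases before and 50 after the start. The site reads the same on both strands. It was found in 1 of the 7 promoters, against 7.45% of 32851 promoters of the same length. Those of Firre and the second start of Ppp1r10 are shown because they lack and hold the site, with the site in capitals. They lie at chrX:50635272-50635571 on the minus strand and chr17:35919022-35919321 on the plus strand of that build, which is not the build of the map.
Firre: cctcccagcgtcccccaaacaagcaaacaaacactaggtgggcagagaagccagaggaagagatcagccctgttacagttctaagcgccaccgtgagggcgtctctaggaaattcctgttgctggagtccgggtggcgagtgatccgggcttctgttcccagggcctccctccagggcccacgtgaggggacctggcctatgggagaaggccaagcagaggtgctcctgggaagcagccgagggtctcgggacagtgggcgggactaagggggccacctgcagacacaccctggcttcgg
Ppp1r10: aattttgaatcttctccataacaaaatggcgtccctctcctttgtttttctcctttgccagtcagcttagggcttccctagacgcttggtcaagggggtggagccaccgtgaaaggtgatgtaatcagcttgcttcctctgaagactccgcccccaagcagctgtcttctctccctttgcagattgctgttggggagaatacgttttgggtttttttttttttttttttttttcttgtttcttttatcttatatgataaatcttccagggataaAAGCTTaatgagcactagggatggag
The Ppp1r10 site starts at base 275 of the window. The bins of the map are far longer than these windows, so no contact below can be assigned to a promoter.

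Coverage differed between the loci and set how well each could be measured. Bins with fewer than 50% of the median of 1087 listed partners on other chromosomes were left out in the main setting, and this removed 7 of the 18 bins. The Slc25a12 bins had 1663 to 1947 contacts with other chromosomes, the Eef1a1 bins 1393 to 1900 and the Atf4 bins 1342 to 1583, and all of these were kept. The median over the 2573 bins with values was 1546. The Firre bin had 1024 contacts and its lower neighbour 1157, against a median of 1118 for bins of X. The upper neighbour had 422 and was left out. All 3 Ypel4 bins (465 to 561 contacts) and all 3 Ppp1r10 bins (433 to 657) were left out. The Ypel4 window held 35.0% and the Ppp1r10 window 38.1% of the median window of its chromosome, and 14 of 174 and 5 of 91 windows there were lower. Among the 40 nearest protein-coding genes in RefSeq's order, Ypel4 had 6 olfactory receptor genes and Ppp1r10 had 10 histocompatibility genes named H2. Firre had 5 olfactory receptor genes, with its window at 77.5% of the median window of X. The part of gene families in the low coverage was not tested. Pairs with these 2 loci are given without the filter.

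Firre met none of its 5 partners more often than counting error allows. Values are contacts recovered from the balanced signal over those expected from the totals of the bins, with a 95% Poisson interval. The balanced signal is given as the mean of a window of 3 by 3 bins over the mean of all such windows of the same chromosome pair. Firre and Slc25a12 had 3 contacts where 3.37 were expected, a ratio of 0.889 (0.183 to 2.60). Their balanced ratio was 1.07, at percentile 59.3 of 16280 windows of X and chromosome 2. Firre and Eef1a1 had 3 contacts where 2.90 were expected, a ratio of 1.03 (0.213 to 3.02). The balanced ratio was 1.08, at percentile 59.9 of 12650 windows. Firre and Atf4 had 2 contacts where 2.65 were expected, a ratio of 0.755 (0.0914 to 2.73), and the balanced ratio was 0.878, at percentile 44.3 of 9790 windows. These 3 windows lay in the middle of their backgrounds. An interval above 1 was found for 0 of the 3, against 1.76% of 38720 windows of X with chromosomes 2, 9 and 15 under the same filter, and 0 of the 3 lay below 1, against 0.95%.

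The poorly covered partners gave wider intervals that also covered 1. Firre and Ypel4 had 3 contacts where 1.18 were expected, a ratio of 2.55 (0.526 to 7.46). The balanced ratio was 3.36, at percentile 97.4 of 28143 windows of X and chromosome 2 without the filter. All 3 contacts fell in the upper neighbour of Ypel4, 1 with each bin of the Firre window. Balancing multiplies each contact by a factor for each of its bins, which was 2.97 for that bin and 3.45 for the upper neighbour of Firre. A single contact between them therefore carried a signal of 10.2, and the position rests on 3 contacts. Firre and Ppp1r10 had 1 contact where 1.12 were expected, a ratio of 0.893 (0.0226 to 4.97), and a balanced ratio of 0.892, at percentile 55.0 of 14628 windows. That contact joined the 2 locus bins themselves.

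Without the filter the upper neighbour of Firre entered as well and added 4 contacts with the kept partners. Slc25a12 then had 4 contacts and a ratio of 0.999 (0.272 to 2.56), and Eef1a1 had 4 and a ratio of 1.16 (0.315 to 2.96). Atf4 had 4 and a ratio of 1.27 (0.347 to 3.26), with its balanced ratio at 1.95. Without the filter the balanced ratios of Slc25a12 (1.18), Eef1a1 (1.26) and Atf4 stood at percentiles 71.4, 78.7 and 92.4 of their chromosome pairs, above those with the filter. Of the 4 Atf4 contacts, all lay in the lower neighbour of Atf4, and 2 of them joined it to the poorly covered bin above Firre. An interval above 1 was found for 0 of the 5 windows, against 1.66% of 77910 windows of X with the 4 chromosomes, and 0 of the 5 lay below 1, against 0.611%.

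**Figure D1:**
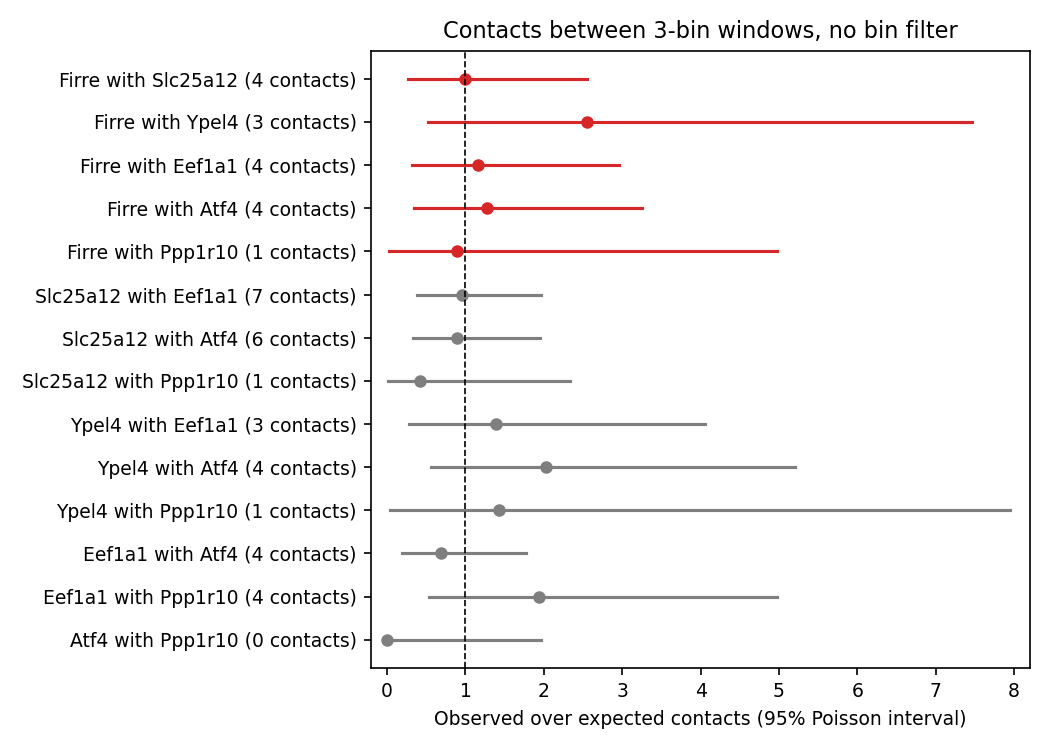
Observed over expected contacts (x axis, points) with 95% Poisson intervals (lines) for the 14 pairs of 3-bin windows on different chromosomes, without the bin filter, Firre pairs in red and pairs of partners in grey. Every interval covers 1, on 0 to 7 contacts per pair.

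Summed over partners, the Firre window stood inside the range of the X chromosome. With the 3 kept partners it had 8 contacts where 8.93 were expected, a ratio of 0.896 (0.387 to 1.77), and the mean of the 3 balanced ratios was 1.01. Among 110 windows of X set against the same partners, 44 were lower and 65 higher. The windows of X ran from 0.249 to 1.84, and 3.64% of them had an interval above 1. With all 5 partners and no filter Firre had 16 contacts where 12.9 were expected, a ratio of 1.24 (0.709 to 2.01), and 125 of 159 windows were lower. The mean of the 5 balanced ratios was 1.73, higher than the ratio of contacts, as Ypel4 and Atf4 had 3.36 and 1.95. The highest window in that set lay on X from 144000001 to 147000000, with 12 contacts where 4.49 were expected, 2.68 (1.38 to 4.67), and 3.77% had an interval above 1. Intervals below 1 were found for 0.909% of windows with the kept partners and 0.629% with all 5. The upper bounds for Firre, 1.77 and 2.01, are the largest mean enrichments that these sums allow.

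**Figure D2:**
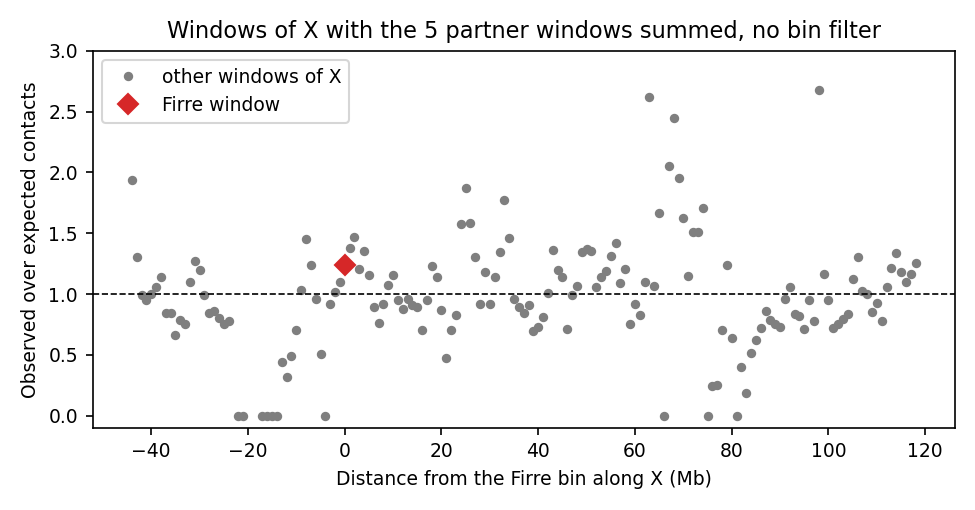
Observed over expected contacts of each 3-bin window of X with the 5 partner windows summed (y axis) against its distance from the Firre bin in Mb (x axis), without the bin filter. The Firre window (red diamond, 1.24) lies among the other 158 windows (grey), of which 33 were higher, and windows at 0 are poorly covered stretches.

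Moving away from the loci in steps of 3 Mb gave mostly lower sums, with intervals that overlapped the one at the loci. With Firre fixed and the partner windows shifted together in steps of 3 Mb up to 30 Mb either way, the 20 shifted sums had a median of 0.859 and ran from 0.559 to 1.59, with 3 above the unshifted 1.24. With the partners fixed and the X window shifted, the 20 sums ran from 0 to 1.58 with a median of 0.904, and 2 were above 1.24. Between these steps, the X windows 1, 2 and 4 Mb above Firre had higher sums of 1.38, 1.47 and 1.35. Those 1 and 2 Mb below had 1.10 and 1.01, so the sum did not peak at the Firre window. The values of 0 came from shifts of -21, -18 and -15 Mb, with at most 0.763 expected contacts. The shift of -24 Mb along the partner chromosomes reached 1.59 (1.04 to 2.34, 26 contacts). The unshifted value had neither the highest rank nor an interval apart from its neighbours at -3 Mb, 0.891 (0.460 to 1.56), and 3 Mb, 1.15 (0.612 to 1.96).

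**Figure D3:**
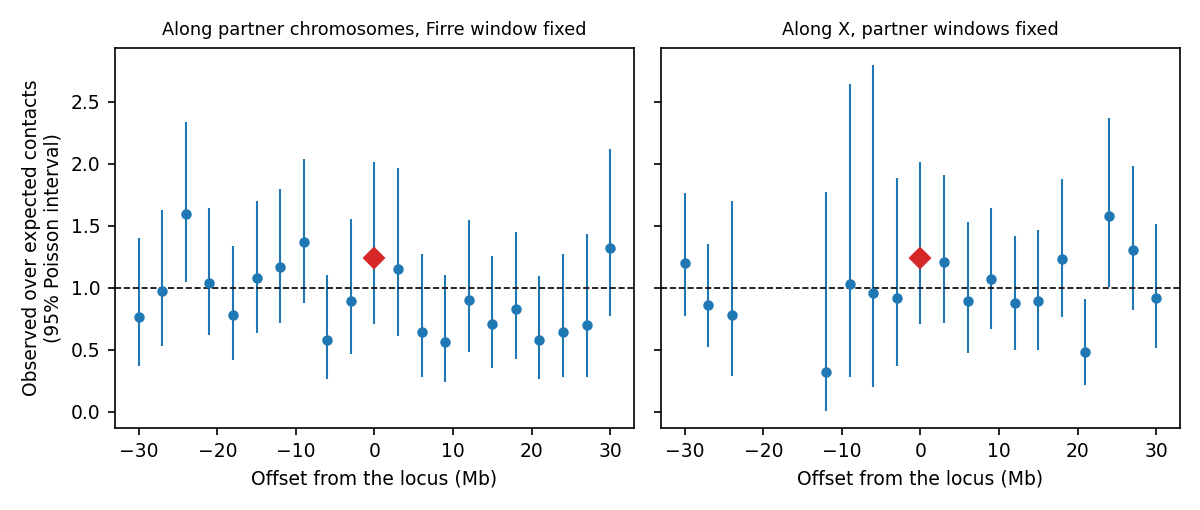
Observed over expected contacts summed over the partners, with 95% Poisson intervals (y axis), against the shift in Mb (x axis), along the partner chromosomes with the Firre window fixed (left) and along X with the partner windows fixed (right), without the bin filter; 3 points with under 3 expected contacts are not drawn. The unshifted sum (red diamond, 1.24) lies within the spread of the shifted ones.

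Wider windows narrowed the intervals around 1, and the sizes of 11 and 21 bins were chosen after seeing the data. With 5 bins per locus the 5 Firre pairs together had 48 contacts and a ratio of 1.20 (0.883 to 1.59). With 11 bins they had 143 contacts and 1.03 (0.865 to 1.21), and with 21 bins 568 contacts and 0.981 (0.902 to 1.07). At 21 bins the windows of Slc25a12 and Ypel4, 13 Mb apart, overlap. Contacts of Firre with the shared bins count for both, so that last interval is too narrow. By pair, the 5-bin values were 0.802 for Slc25a12, 1.14 for Eef1a1, 1.45 for both Ypel4 and Atf4 and 1.74 for Ppp1r10, and every interval covered 1. Among the 15 values at 5, 11 and 21 bins, 1 had an interval above 1. It was Firre with Ppp1r10 at 11 bins, with 27 contacts where 16.3 were expected, 1.65 (1.09 to 2.40). In all, 2.13% of the 71298 windows of that size on X with the 4 chromosomes had such an interval, against 1.93% at 5 bins and 2% at 21. The same pair had 1.13 (0.920 to 1.38) at 21 bins. An 11-bin region around Ppp1r10 reaches beyond the poorly covered bins, so this is a value of the region and not of the gene's own bin.

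Pairs of partners also had intervals that covered 1. Slc25a12 and Eef1a1 had 7 contacts where 7.36 were expected, 0.951 (0.382 to 1.96). Of these, 3 joined the 2 locus bins, where 0.714 were expected. Slc25a12 and Atf4 had 6 contacts, 0.893 (0.328 to 1.94), spread over 6 bin pairs, and Eef1a1 and Atf4 had 4, 0.691 (0.188 to 1.77). The 3 kept pairs summed to 17 contacts and 0.856 (0.498 to 1.37), with a mean balanced ratio of 0.873. An interval above 1 was found for 0 of the 3, where 2.1% of 40427 windows of these chromosomes had one, and 1.33% had one below 1.

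Pairs that involve Ypel4 or Ppp1r10 spanned a wider range on fewer contacts. Ypel4 had 2.03 (0.554 to 5.21) with Atf4 on 4 contacts, 1.39 (0.286 to 4.05) with Eef1a1 on 3 and 1.43 (0.0361 to 7.95) with Ppp1r10 on 1. Ppp1r10 had 1.94 (0.529 to 4.97) with Eef1a1 on 4 contacts and 0.419 (0.0106 to 2.33) with Slc25a12 on 1. It had 0 contacts with Atf4 where 1.87 were expected, which allows a ratio of up to 1.97. All 9 pairs of partners on different chromosomes summed to 30 contacts where 31.0 were expected, 0.968 (0.653 to 1.38), and 0 of the 9 had an interval above 1, against 2.03% of 87833 windows without the filter, and 0 had one below 1, against 1.08%. At 21 bins, Atf4 and Ppp1r10 had 193 contacts and 1.17 (1.01 to 1.35), the only one of 27 values of partner pairs at 5, 11 and 21 bins with an interval above 1. Of 66114 windows of that size on these chromosome pairs, 4.35% had one, against 2.41% at 5 bins and 3.12% at 11. Slc25a12 and Ypel4 lie 13 Mb apart on chromosome 2 and had 3 contacts, 1.20 (0.247 to 3.50). The 161 window pairs of that distance on chromosome 2 had a pooled value of 1.07, and 63 were higher.

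No single pair of member bins passed the test against counting noise. In the 1-sided Poisson test with Benjamini-Hochberg adjustment over 2594953 bin pairs, 0 of 45 member pairs had an adjusted p under 0.05, against 7.71e-05% of all pairs. At an unadjusted p under 0.05 there was 1 of 45, the locus bins of Slc25a12 and Eef1a1, against 2.76% of all pairs. Firre with its partners gave 0 of 18. Over all bins on other chromosomes, 2.35% of the 4462 pairs of the Firre bins had such a p, 2.39% of those of Slc25a12, 2.96% of Eef1a1 and 2.98% of Atf4. These shares lie near the 2.76% of all pairs. Without the filter 0 of 126 member pairs passed adjustment, against 6.38e-05% of all pairs, and 3 had an unadjusted p under 0.05, against 2.6% of all pairs.

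Contacts between the bins of a single locus were few. They join homologs only if the map holds pairs of unlike alleles and each end was assigned to the right allele. The Slc25a12 window had 6 contacts among its own bins where 2.85 were expected, 2.11 (0.774 to 4.59), Eef1a1 had 4, 1.91 (0.521 to 4.90), and Atf4 had 2, 1.14 (0.138 to 4.12). Firre had 1 without the filter, 1.71 (0.0434 to 9.54), and both Ypel4 and Ppp1r10 had 0. An interval above 1 was found for 0 of the 6 windows, against 8.22% of 2517 windows, whose pooled value was 1.41. The 6 loci could not be told from that value.

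The Firre bin ranked high on X in contacts with both ends inside it. It held 8, and 2 of the 160 bins of X held more, at 13 from 8000001 to 9000000 and 10 from 151000001 to 152000000. Its neighbours held 1 and 0, and 66.2% of the bins of X held none. The expected number, taken as the square of the bin's factor with each pair counted once, was 0.145 for the Firre bin, which gave 55.0 (23.8 to 108). Of all 2573 bins, 34 held more contacts than the Firre bin and 46 had a higher ratio. All bins of X pooled gave 4.77, and 4.48 without the Firre bin, so within-bin contacts exceeded this expectation throughout. An interval above 1 was found for 5 of the 18 member bins, the 3 of Ppp1r10 and the locus bins of Firre and Eef1a1, against 11.9% of the bins of X and 13.3% of all bins. The Ppp1r10 bin also held 8 contacts, on an expected 0.0257 in its poorly covered stretch, with 3 and 2 in its neighbours. Its ratio was 311 (134 to 613), and 5 of all bins had a higher one. The Eef1a1 bin held 3, the Atf4 bin 2, and the bins of the Slc25a12 and Ypel4 windows held 0. These contacts too join homologs only if the map holds pairs of unlike alleles and each end was assigned to the right allele. For the Firre bin this again needs cells that carry X from both strains, and the sex of the embryos is not given. Whether these contacts join homologs was not tested. Within-bin contacts were singled out after their values were seen.

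Across whole chromosomes the Firre window had a value near 1 with those of its partners. It had 401 contacts with chromosomes 2, 9, 15 and 17 where 415 were expected and 1750 with the other 15 autosomes, a ratio of 0.960 (exact conditional binomial interval 0.859 to 1.07). By chromosome its values ran from 0.750 on chromosome 19 to 1.15 on chromosome 6. The partner chromosomes took ranks 4 (chromosome 15, 1.11), 5 (chromosome 17, 1.09), 14 (chromosome 2, 0.914) and 18 (chromosome 9, 0.841) of 19. Every one of the 19 intervals covered 1, where 2.62% of windows with a chromosome lay above 1 and 2.58% below. The SD over chromosomes was 0.110, near the 0.0974 that counting alone gives.

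The SDs of the partners over chromosomes were also near those of counting alone, with Ppp1r10 furthest from it at 0.144 against 0.115. Each partner had 19 values. Of windows that passed the filter, 2.62% lay above 1 with a chromosome and 2.58% below, and these shares were not counted without the filter. Slc25a12 ran from 0.844 to 1.09 over chromosomes with every interval covering 1. Eef1a1 was lowest with chromosome 19, 0.813 (0.659 to 0.992), and Ypel4 had 0.804 (0.643 to 0.995) with chromosome 3. Atf4 was highest with chromosome 17, which carries Ppp1r10, at 1.19 (1.02 to 1.39, 174 contacts). Ppp1r10 was highest with chromosome 8 at 1.26 (1.03 to 1.54) and had 0.760 (0.582 to 0.977) with chromosome 13. With X, which carries Firre, Slc25a12 had 0.937, Eef1a1 1.03, Atf4 0.975, Ypel4 1.14 and Ppp1r10 1.06, and each interval covered 1.

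Among windows that passed the bin filter, those that met Firre most did not hold a partner. The Ypel4 and Ppp1r10 windows could not enter this ranking, and the unfiltered 2.55 of Ypel4 is above the highest filtered value on chromosome 2. On any autosome, 1.94% of 2218 windows had an interval above 1 with Firre, the same share as the 1.94% of all windows of X. The highest were on chromosome 8 from 2000001 to 5000000, 4.58 (1.49 to 10.7, 5 contacts), chromosome 12 from 26000001 to 29000000, 4.31 (1.40 to 10.1, 5 contacts), and chromosome 14 from 44000001 to 47000000, 3.62 (0.986 to 9.26, 4 contacts). On chromosome 17 the highest window lay 35 Mb from Ppp1r10, from 70000001 to 73000000, with 11 contacts and 3.43 (1.71 to 6.13). On chromosome 15 it lay 10 Mb from Atf4, from 69000001 to 72000000, with 10 contacts and 3.04 (1.46 to 5.60). The highest windows of chromosomes 2 and 9 had 2.46 (0.798 to 5.73) and 2.69 (0.734 to 6.90). These are the extremes of many windows and were chosen for their height, so they are values and not calls.

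Profiles over 10 Mb blocks were too close to counting error to tell whether Firre shared them with its partners. Over 224 to 232 blocks on chromosomes that hold neither locus, Pearson's r between Firre and a partner was 0.0233 for Slc25a12, -0.00181 for Ypel4, -0.0362 for Eef1a1, -0.0431 for Atf4 and 0.0941 for Ppp1r10. The windows of X most like Firre, at least 5 Mb away, lay from 76000001 to 79000000 (r = 0.145), from 103000001 to 106000000 (0.136) and from 87000001 to 90000000 (0.0940), over 241 blocks, and the median of 105 windows was -0.00418. These 3 were chosen as the highest of the 105. The Firre window had a mean of 8.80 contacts per block, so these correlations are weak and rest on sparse counts. The variance over blocks, divided by that of counting alone, was 1.12 for Firre. It was 0.918 for Slc25a12, 1.07 for Eef1a1, 1.21 for Ypel4, 1.25 for Atf4 and 1.22 for Ppp1r10. The median of 2328 windows was 1.08. Profiles so near counting error would give an r near 0 whether or not the loci share contacts. The highest block of Firre was the first 10 Mb of chromosome 8, with 11 contacts where 5.01 were expected.

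The loci differed in which bins of other chromosomes they met. Each kept bin was scored by the leading eigenvector of its contacts with other chromosomes, scaled to an SD of 1 and turned so that the Firre bin is negative. Scores of neighbouring bins correlated at r = 0.511. Gene positions did not set the sign, so neither side is called active. The Firre bin scored -1.50 and its lower neighbour -1.57, at percentiles 1.88 and 1.54 of 2341 bins, and the mean of its window was the lowest of 110 windows of X. The Atf4 bins scored 1.98 to 3.20, and 88 of the 89 windows of chromosome 15 were lower. Slc25a12 ranged from 0.471 to 1.20 and Eef1a1 from -0.442 to 1.20. Ypel4 and Ppp1r10 had no kept bin and no score.

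Because a locus's own contacts enter its score, contacts were also counted against a score made without its chromosome, a comparison added after seeing the data. The bins of the other chromosomes were split by that score into 5 quintiles. Firre met the lowest quintile more than expected, 1.13 (1.03 to 1.24, 471 contacts), and the highest less, 0.878 (0.789 to 0.973, 361 contacts), with the middle quintiles in order between them at 1.07, 1.01 and 0.914. The ratio of highest to lowest was 0.776 (0.675 to 0.892), over the 2 kept bins of the window. Only 1 of the 110 windows of X and 10 of all 2328 windows had a lower ratio, and 23.6% of the windows of X and 26% of all windows had an interval below 1. On X, 2.73% of windows had an interval above 1.

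The partners leaned the other way or neither way. Atf4 met the highest quintile at 1.28 (1.20 to 1.36) and the lowest at 0.906, a ratio of 1.41 (1.28 to 1.55) that 97.7% of all windows stayed below. Slc25a12 had a ratio of 1.14 (1.05 to 1.25) and Eef1a1 1.12 (1.02 to 1.23). These 3 intervals lay above 1, as did those of 21.4% of all windows. Ypel4 had 1.10 (0.932 to 1.30) and Ppp1r10 1.05 (0.891 to 1.25). Set against Firre directly, in 5 comparisons with unadjusted Wald intervals on the log scale, the ratio was 1.81 times as high for Atf4 (1.54 to 2.14), 1.47 for Slc25a12 (1.25 to 1.73), 1.44 for Eef1a1 (1.22 to 1.70), 1.42 for Ypel4 (1.15 to 1.76) and 1.36 for Ppp1r10 (1.10 to 1.68). All 5 comparisons share the Firre contacts. The median ratio of all 2328 windows, 0.974, was also above that of Firre. Only 10 of these windows had a lower ratio than Firre. How many other windows would differ from Firre in the same way was not counted, so the difference cannot be called particular to the partners. In windows of 3 bins the 5 intervals against Firre lay above 1, in 1 map, with no share over all windows to set beside them. The Firre value rests on its 2 kept bins, whereas Ypel4 and Ppp1r10 entered with all 3 bins and no filter. The differences were not computed with the upper neighbour of Firre added. With 5 bins the difference held for Atf4, 1.37 (1.21 to 1.54), and Slc25a12, 1.17 (1.04 to 1.31), but not for Ypel4, 1.17 (0.997 to 1.38), Ppp1r10, 1.15 (0.985 to 1.33), or Eef1a1, 1.07 (0.949 to 1.20).

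**Figure D4:**
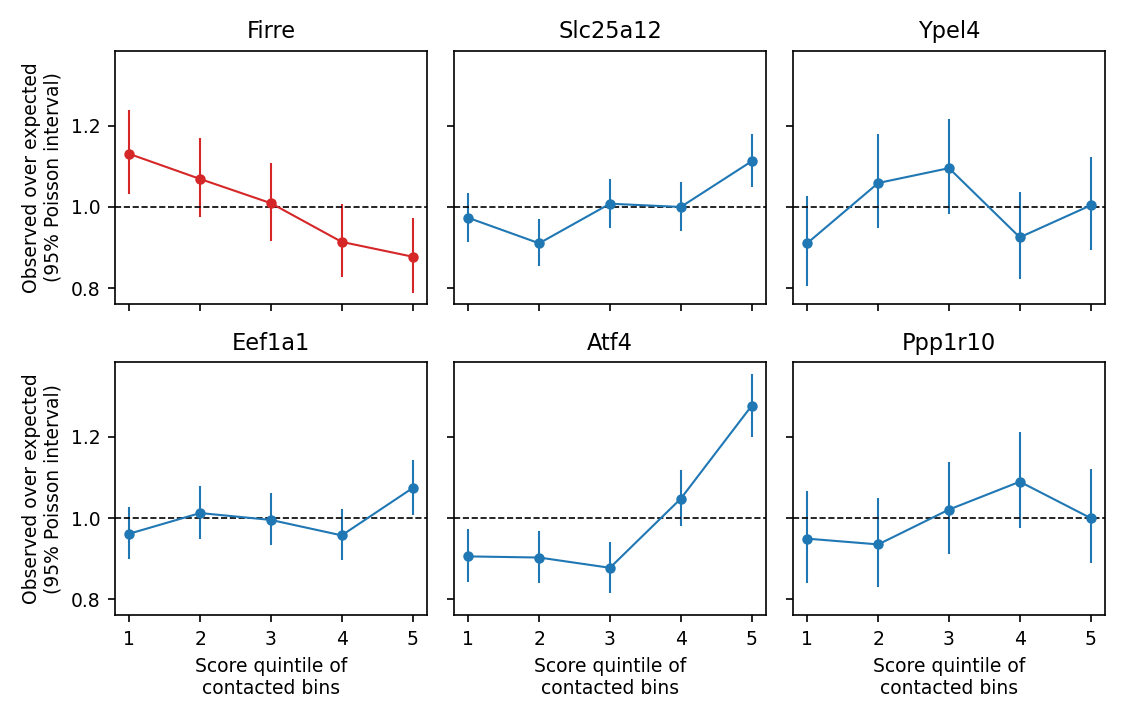
Observed over expected contacts with 95% Poisson intervals (y axis) of each locus with the 5 quintiles of bins on other chromosomes, from the lowest (1) to the highest (5) score (x axis). Firre (red) falls from 1.13 to 0.878, whereas Atf4 rises from 0.906 to 1.28.

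The lean varied from bin to bin. Of the Firre bins, the lower neighbour had a highest-to-lowest ratio of 0.734 (0.605 to 0.890) and the locus bin 0.827 (0.673 to 1.02). The poorly covered upper neighbour had 1.18 (0.839 to 1.67) and does not enter the window ratio of 0.776. The kept bins 2 Mb below and above had 1.13 (0.937 to 1.37) and 1.09 (0.904 to 1.32), and the bin 3 Mb above had 0.815 (0.677 to 0.979). With 5 bins in the window, less the poorly covered one, the Firre ratio was 0.936 (0.850 to 1.03), so the call does not hold for the wider region. Around Atf4 the 6 bins from 4 Mb below to 1 Mb above ranged from 1.32 to 1.95, each with an interval above 1, and the next bins had 0.891 and 0.833. The Eef1a1 bin had 1.28 (1.08 to 1.52) and its upper neighbour 1.31 (1.10 to 1.55), with 0.887 and 0.875 on either side. With 5 bins the Eef1a1 ratio was 1.00 (0.929 to 1.08). In the Slc25a12 window only the upper neighbour had an interval above 1, at 1.26 (1.08 to 1.47). The Slc25a12 bin had 1.09 (0.938 to 1.27) and its lower neighbour 1.09 (0.947 to 1.27). The poorly covered Ypel4 bin had 1.35 (1.02 to 1.78), and its neighbours had 0.909 and 1.06 with intervals that covered 1. Within the Ppp1r10 window the ratio went from 1.45 (1.12 to 1.88) in the lower to 0.687 (upper bound 0.938) in the upper neighbour, so its window value near 1 is a mean of unlike bins. Of all kept single bins, 16.7% had an interval above 1 and 15.8% below.

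**Figure D5:**
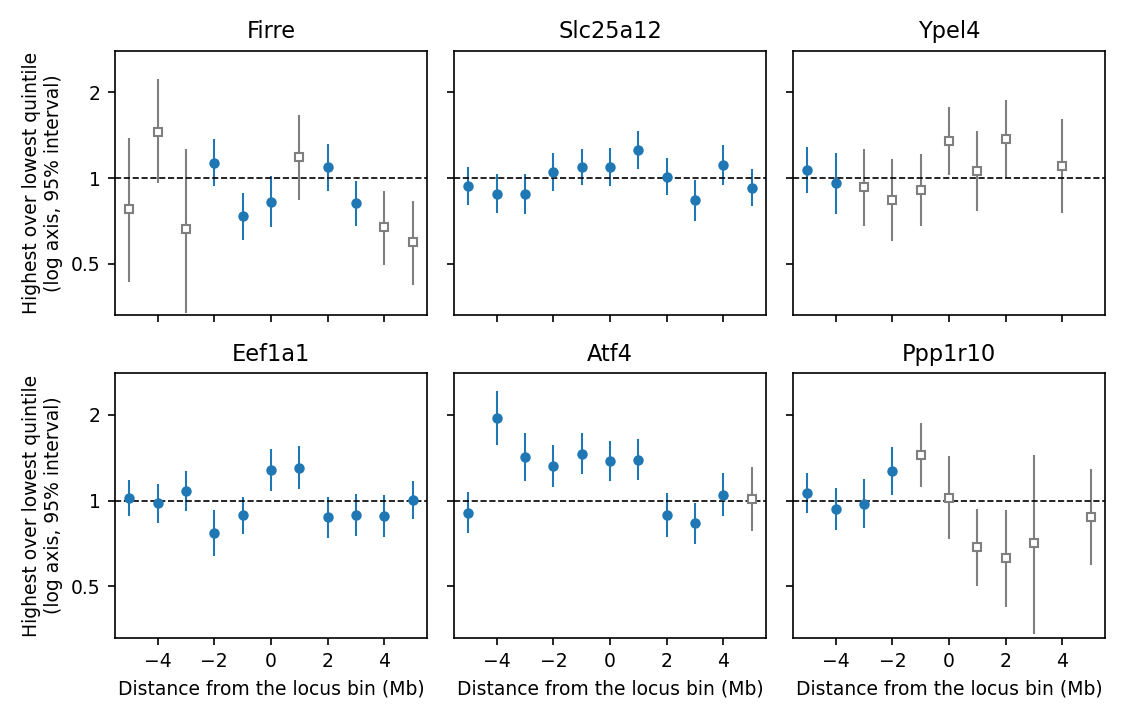
Ratio of observed over expected contacts with the highest to that with the lowest score quintile (y axis, log scale, 95% intervals) for single bins up to 5 Mb from each locus bin (x axis). Filled points are kept bins, open squares poorly covered ones, and 3 bins with under 20 contacts in the lowest quintile are not drawn; values are above 1 for the 6 bins around Atf4 and below 1 at Firre and its lower neighbour.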

How the data were processed

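Contacts were measured by HindIII Hi-C. The authors deposited 1 table with a balanced signal for each pair of bins of 1 Mb, pooled over libraries per its name, and a key of bin numbers and positions. HiC-Pro 2.7.8, bedtools and mm9 are named, without roles, in the submitters' processing notes. How reads were aligned and filtered is not given in the sources used here. Each signal was divided into a whole number of contacts and a factor per bin, whole within 0.01 for all 1365118 listed pairs, with 1955524 contacts between different bins and a mean of 0.684 per kept pair of bins on different chromosomes. Expected contacts were products of 1 factor per bin, fitted to the bins' totals with other chromosomes. Unlisted pairs counted as 0. A background window needed a kept centre and at least 2 of its 3 bins kept. The main value of a window was the balanced ratio, with intervals from contacts. Ypel4 and Ppp1r10 have no kept bin, so their values use no filter, and the main sums leave them out. Score contrasts were clipped at the 99.9th percentile.

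The members and lists were chosen with earlier results of these data known. Beside the 6 loci, the windows named are, per partner chromosome, the highest with Firre holding at least 50% of the partner window's expected contacts, the 3 highest on any autosome (1 per chromosome), and the 3 windows of X most like Firre. Alternatives were recovered contacts, other bin filters and window sizes, listed pairs alone, capped values, other backgrounds and each partner left out. Count recovery and the values of raised windows were tested on simulated counts, drawn from the same product of bin factors. The score, the quintiles and the contacts within bins or loci were not tested in that way. The tools were numpy 2.4.6, pandas 2.3.3 and scipy 1.17.1 under Python 3.11.15. Positions are 1-based on mm9 unless another build is named.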

Additional observations from a re-analysis of the deposited data

How the results depend on the processing

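Of 107 alternatives to 30 results, 92 kept the call, or kept the value within the interval or spread of the main one. Another 9 moved it, 6 ended a call and 0 reversed one. For windows with few contacts that interval is wide, so staying within it says little about stability. The balanced ratio of Firre with Atf4, for example, was 0.878 with the filter and 1.95 without, both within 0.0914 to 2.73. With 1 bin per locus the balanced ratio was 0 for Firre with Slc25a12, Ypel4, Eef1a1 and Atf4 and for the sum over kept partners, 8.04 for Firre with Ppp1r10 on 1 contact, and 1.85 for the sum over kept partner pairs. The Firre score was -1.46 from recovered contacts and -2.18 with the stricter filter, which keeps only its lower neighbour, and both were set against a spread of only 2 bins. The highest-to-lowest ratio lost its interval apart from 1 with 5 bins for Firre (0.936) and Eef1a1 (1.00), and for Eef1a1 with the filter at 80% (1.08). With 5 bins the differences from Firre were 1.17 for Ypel4, 1.07 for Eef1a1 and 1.15 for Ppp1r10, with intervals that covered 1. The single bins hold fewer contacts by construction, and the cause of the other changes was not tested. The filter at 80% leaves out the Firre bin, so its windows have no value there, and its lower neighbour gave 0 of 9 pairs with partners at an unadjusted p under 0.05. Depth limits every single window, with 0 to 7 contacts per pair of loci, and only enrichments of several times could be seen.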
